A study of Mus musculus with 16 samples.

Results

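Peaks of 2 transcription factors, Bcl11a and Spi1, were compared in MPP3 cells of mice whose genotype is labelled WT-iMOS T1. The comparison used 6 of the 16 CUT&Tag libraries of the series, 3 for Bcl11a and 3 for Spi1. The 6 peak lists were merged wherever peaks shared at least 1 bp, which gave 17709 regions. A region with a peak in 3 of 3 Bcl11a lists and in 0 of 3 Spi1 lists is called Bcl11a-only here, and there were 219 of them (1.24% of the merged regions). The opposite pattern, called Spi1-only, covered 1240 regions (7% of them), and 1263 regions (7.13%) had a peak in all 6 lists. Presence in the lists chose these classes, so the presence itself is a description and was not tested.

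MPP3 cells are multipotent progenitors of the bone marrow that are biased towards myeloid output. They were sorted from bone marrow, and the study asked by which mechanism Bcl11a acts in them. The comparison set Bcl11a WT-iMOS T1 against Spi1 WT-iMOS T1. Lists of Bcl11a WT-iMOS T2, Spi1 KO-iMOS T1 and T2, and Spi1 WT-iMOS T2 served as lists that had no part in choosing the regions. The labels do not explain iMOS, T1, T2 or the tag 3m that all titles carry, do not name the gene altered in KO-iMOS, and do not say whether replicates came from separate animals, so p-values between libraries measure only the spread between these samples. Peak lists hold no expression levels, and the MPP3 identity was not checked here.

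Bcl11a is a zinc finger repressor that silences fetal globin genes in red cell precursors, is needed for B cell development, and works with corepressor complexes such as NuRD. Spi1, also called PU.1, is an ETS family activator that binds purine-rich sites around the core GGAA and sets up enhancers of myeloid and B lymphoid genes. CUT&Tag directs a transposase to the factor through an antibody, so that the enzyme cuts and tags DNA beside it, and a peak marks a stretch with more tags than its surroundings. A peak in a list shows tagged DNA above the caller's background, and absence from a list does not show that a factor was absent.

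The sequences below show single promoters of each class. They were chosen by rank, vary within a class, and do not by themselves show the difference in promoter shares described further on. They are the 250 bases before the gene start, 5′ to 3′ on the strand of the gene, from the RefSeq promoter table on GRCm38.p6. For each class with 1 target the 3 leading regions whose summit lay in a promoter window are shown, and for regions in all 6 lists the leading one. Leading means the highest rank of the deposited −log10 p within each list, averaged over lists. Capitals mark GAGGAA, the core of the site bound by Spi1; GGGCGG, the GC box bound by Sp factors; TGACCA, the short motif bound by human BCL11A; and CCGGAAGT, a motif of the wider ETS family; each was searched on both strands.
Pcbp2: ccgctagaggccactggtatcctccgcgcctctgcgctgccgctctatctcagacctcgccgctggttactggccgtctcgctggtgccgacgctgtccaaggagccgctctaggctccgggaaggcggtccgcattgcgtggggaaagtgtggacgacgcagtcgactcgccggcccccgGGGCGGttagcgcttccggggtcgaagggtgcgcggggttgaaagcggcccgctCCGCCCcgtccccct
Ptges2: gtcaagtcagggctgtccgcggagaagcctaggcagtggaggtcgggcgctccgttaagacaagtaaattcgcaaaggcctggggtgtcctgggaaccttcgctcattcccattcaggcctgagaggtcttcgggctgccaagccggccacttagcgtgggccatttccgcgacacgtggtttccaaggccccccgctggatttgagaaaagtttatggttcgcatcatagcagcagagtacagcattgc
Cyth1: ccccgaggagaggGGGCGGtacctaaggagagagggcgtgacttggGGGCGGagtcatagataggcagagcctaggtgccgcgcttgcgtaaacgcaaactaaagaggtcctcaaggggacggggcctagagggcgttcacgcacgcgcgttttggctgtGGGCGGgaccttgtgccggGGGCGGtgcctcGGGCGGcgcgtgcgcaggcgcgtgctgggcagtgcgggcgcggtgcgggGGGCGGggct
Mtf1: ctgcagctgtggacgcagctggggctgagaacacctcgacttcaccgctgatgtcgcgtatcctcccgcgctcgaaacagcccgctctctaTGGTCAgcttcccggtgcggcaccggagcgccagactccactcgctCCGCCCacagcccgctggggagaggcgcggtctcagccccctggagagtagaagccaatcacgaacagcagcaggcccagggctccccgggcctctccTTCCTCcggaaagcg
Wbp11: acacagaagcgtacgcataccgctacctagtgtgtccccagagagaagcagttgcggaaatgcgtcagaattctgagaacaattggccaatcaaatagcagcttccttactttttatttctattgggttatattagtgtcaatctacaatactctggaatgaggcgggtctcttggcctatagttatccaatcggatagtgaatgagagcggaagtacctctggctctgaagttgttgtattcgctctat
Marf1: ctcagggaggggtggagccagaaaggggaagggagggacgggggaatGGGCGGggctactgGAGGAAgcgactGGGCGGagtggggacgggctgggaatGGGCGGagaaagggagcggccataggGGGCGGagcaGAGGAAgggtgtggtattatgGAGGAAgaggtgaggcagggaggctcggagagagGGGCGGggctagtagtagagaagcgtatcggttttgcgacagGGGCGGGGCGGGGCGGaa
Pop7: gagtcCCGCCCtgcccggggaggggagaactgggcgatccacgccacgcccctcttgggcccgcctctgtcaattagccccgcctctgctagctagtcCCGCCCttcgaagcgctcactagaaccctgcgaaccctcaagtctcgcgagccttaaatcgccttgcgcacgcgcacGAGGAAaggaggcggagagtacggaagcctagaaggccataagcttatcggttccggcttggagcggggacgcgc

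Pcbp2, Ptges2 and Cyth1 had Bcl11a-only regions at their starts. In that order these regions had a peak in 0, 3 and 3 of 3 Bcl11a T2 lists. They had one in 0, 1 and 1 of 3 Spi1 T2 lists and in 1, 2 and 4 of 4 Spi1 KO-iMOS lists. The Pcbp2 window spans chr15:102470289-102470538 on the plus strand, and Pcbp2 encodes a poly(rC)-binding RNA protein. Ptges2, for a prostaglandin E synthase, lies at chr2:32395640-32395889 on the plus strand, and Cyth1, for an exchange factor of ARF GTPases, at chr11:118248559-118248808 on the minus strand. The printed Pcbp2 stretch holds 2 GC boxes, Cyth1 holds 6 and Ptges2 holds 0, and none of the 3 holds GAGGAA or TGACCA. Their G+C content is 70.4%, 70.4% and 57.6% in that order. The summits at Pcbp2, Ptges2 and Cyth1 lay 141, 10 and 37 bp before the start. The fold enrichment deposited for the Pcbp2 peak was 5.82, 5.85 and 8.81 in Bcl11a replicates 1 to 3.

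Mtf1, Wbp11 and Marf1 had Spi1-only regions. Mtf1 encodes a metal-responsive transcription factor and its window is chr4:124802299-124802548 on the plus strand. Wbp11, for a splicing-related protein, lies at chr6:136828217-136828466 on the minus strand, and Marf1, for a meiosis regulator, at chr16:14159275-14159524 on the minus strand. GAGGAA stands 1 time in the printed Mtf1 stretch, 0 times in Wbp11 and 3 times in Marf1. GC boxes number 1, 0 and 8 in the same order, so that Marf1 holds more of them than any of the 3 Bcl11a-only stretches, and the G+C content is 67.2%, 43.6% and 66.4%. TGACCA stands 1 time in Mtf1 and in no other printed stretch, and CCGGAAGT is in none of the 7. The Mtf1 peak had a fold enrichment of 13.2, 10.2 and 10.4 in Spi1 replicates 1 to 3. Pop7, for a subunit of RNase P, stands for the regions in all 6 lists, with its window at chr5:137502430-137502679 on the minus strand. Its peak had a fold enrichment of 5.66, 6.70 and 6.64 in the Bcl11a lists and 15.7, 12.4 and 11.5 in the Spi1 lists. These folds and the −log10 p behind the ranks were computed by the authors, peak by peak, and serve here only to describe or order the peaks of a list.

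The lists were unequal in length and 1 library stood apart. On assembled chromosomes the Bcl11a lists held 4150, 5845 and 7270 peaks and the Spi1 lists 10696, 6987 and 6648. The share of summits within 1 kb of a gene edge, meaning the annotated start or end of a protein-coding gene, was 20.7%, 38.5% and 40.7% in Bcl11a replicates 1 to 3. In Spi1 replicates 1 to 3 it was 23.5%, 22.7% and 17.5%. Bcl11a replicates 2 and 3 thus lay above every Spi1 library, while Bcl11a replicate 1 lay within their range. The means were 33.3 ± 11.0% for Bcl11a and 21.2 ± 3.29% for Spi1 (SD, n = 3 each). The exact permutation test, two-sided, gave p = 0.3, or 0.45 when adjusted by Benjamini-Hochberg for the 6 measures compared. With 3 libraries against 3 the smallest p this test can give is 0.1. Median peak width was 350, 373 and 386 bp for Bcl11a against 392, 376 and 363 bp for Spi1, and the groups overlapped (exact permutation p = 0.6). The share of summits inside a gene, 47.3%, 53.6% and 55.3% for Bcl11a and 51.8%, 50.5% and 48.9% for Spi1, overlapped as well (exact permutation p = 0.5). The 6 measures gave exact permutation p-values of 0.3 to 0.6.

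Bcl11a-only regions lay at gene edges more often than regions in all 6 lists. Of the 219 Bcl11a-only regions 122 (55.7%; exact 95% binomial interval 48.9 to 62.4%) had their median summit within 1 kb of a gene edge. Of the 1240 Spi1-only regions 237 did (19.1%, 17.0 to 21.4%), and of the 1263 regions in all 6 lists 284 did (22.5%, 20.2 to 24.9%). These intervals cover counting error only, since regions share their 6 libraries and are not replicates. Library by library, 55.7%, 54.96% and 56.2% of the peaks of Bcl11a replicates 1 to 3 in Bcl11a-only regions were near an edge, against 22.6%, 21.8% and 22.2% of their peaks in regions of all 6 lists. The difference was 33.4 ± 0.471 percentage points (SD, n = 3). By the class rule the 3 libraries have peaks in the same regions. This SD is therefore small by construction and does not measure how the difference varies between independent replicates. Spi1-only regions differed from regions in all 6 lists by −3.05 ± 0.0952 points over the Spi1 libraries (SD, n = 3, with the same limit). The sign of that smaller difference did not hold under every setting. It was 0.0454 points with peaks at a −log10 q of at least 5 and 0.0386 points without Bcl11a replicate 3.

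Cutting every list to its 4150 strongest peaks by −log10 p left the order of the shares near a gene edge in place. The 10398 merged regions then held 484 Bcl11a-only (4.65%), 972 Spi1-only (9.35%) and 808 regions in all 6 lists (7.77%). The shares near a gene edge were 57.0%, 20.8% and 23.1%. The classes changed in membership. Of the 219 Bcl11a-only regions of the full lists 170 were still Bcl11a-only. Of the 484 found at equal length 170 were Bcl11a-only in the full lists and 23 had a peak in all 6 full lists. The other 291 had a peak in some but not all full Spi1 lists. Most of the class at equal length thus had a Spi1 peak that the cut removed. For Spi1-only 772 of 1240 regions were found again, making up 772 of the 972.

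Among regions with a peak in 3 of 3 Bcl11a lists, the share near a gene edge was lower with each further Spi1 list. It was 55.7% with no Spi1 list, 49.6% of 276 regions with 1, 37.9% of 367 with 2 and 22.5% with 3. At equal length the order was the same, with 57.0%, 37.2%, 31.8% and 23.1%. With 2 Bcl11a lists at full length the order was also the same, with 57.7%, 42.6%, 33.9% and 30.6%. The remaining rows of this grid did not follow that order. With no Bcl11a list the share was 11.8%, 15.0% and 19.1% with 1, 2 and 3 Spi1 lists. At equal length it was 54.5%, 23.7%, 24.9% and 32.1% with 2 Bcl11a lists and 0 to 3 Spi1 lists, and 32.5%, 15.6%, 23.9% and 28.3% with 1 Bcl11a list. Just outside the Bcl11a-only rule, 863 regions had a peak in 2 Bcl11a lists and no Spi1 list, and 57.7% of them were near an edge. Just outside the Spi1-only rule, 1490 regions had a peak in 2 Spi1 lists and no Bcl11a list, and 15.0% of them were near an edge.

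**Figure D1:**
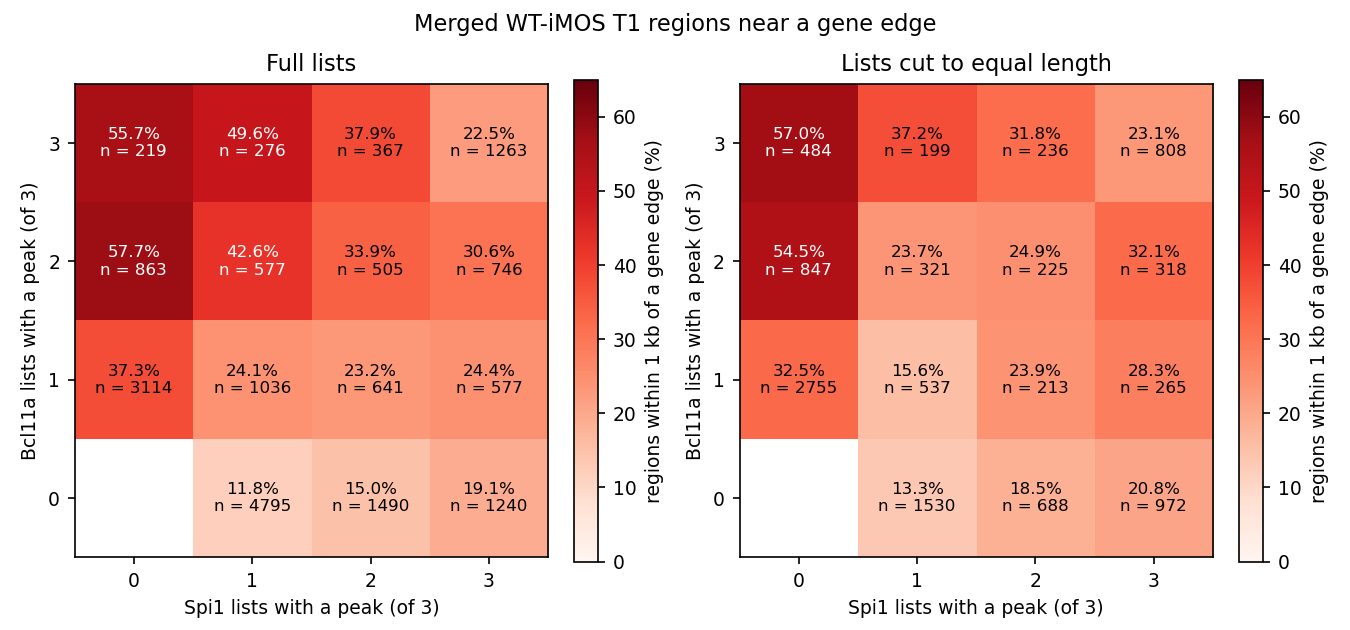
Share of merged regions whose median summit lies within 1 kb of a gene edge, by the number of Bcl11a lists (vertical axis) and Spi1 lists (horizontal axis) with a peak, for full lists and lists cut to equal length; n is the number of regions. Along the top row of each panel the share is highest with 0 Spi1 lists (55.7% and 57.0%) and lowest with 3 (22.5% and 23.1%).

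The number of Bcl11a-only regions depended on single libraries. Without Bcl11a replicate 1, the shortest list, 927 regions met the rule, and 61.8% of them against 27.8% of the shared regions were near an edge. Without Spi1 replicate 1, the longest list, 418 regions met it, with shares of 57.2% and 21.7%. Without Spi1 replicate 3 the Spi1-only regions numbered 2176. The difference in share near an edge between Bcl11a-only and shared regions stayed between 23.1 and 35.4 points when each of the 6 libraries was left out in turn.

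The edges concerned were mostly gene starts. Of the 122 Bcl11a-only regions near an edge 101 (82.8%) were within 1 kb of a start in the promoter table, against 167 of 237 Spi1-only regions (70.5%) and 223 of 284 regions in all 6 lists (78.5%). The table lists starts for 17491 of the 21883 protein-coding genes, and 2, 34 and 34 regions of the classes lay on chromosomes without an entry and were not used for starts. The window from 250 bp before to 50 bp after a start held 67 of 217 Bcl11a-only summits (30.9%), 93 of 1206 Spi1-only summits (7.71%) and 101 of 1229 summits of all 6 lists (8.22%). From 1 to 10 kb before a start the order was reversed, with 3.69% of Bcl11a-only, 10.4% of Spi1-only and 6.35% of shared regions. The median distance to the nearest gene edge was 515 bp for Bcl11a-only, 10681 bp for Spi1-only and 13701 bp for regions in all 6 lists. Inside a protein-coding gene lay 40.6%, 53.3% and 47.2% of them, and 4.11%, 9.11% and 16.1% lay over 100 kb from any gene edge. Exons, introns and UTRs were not annotated in the table used.

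**Figure D2:**
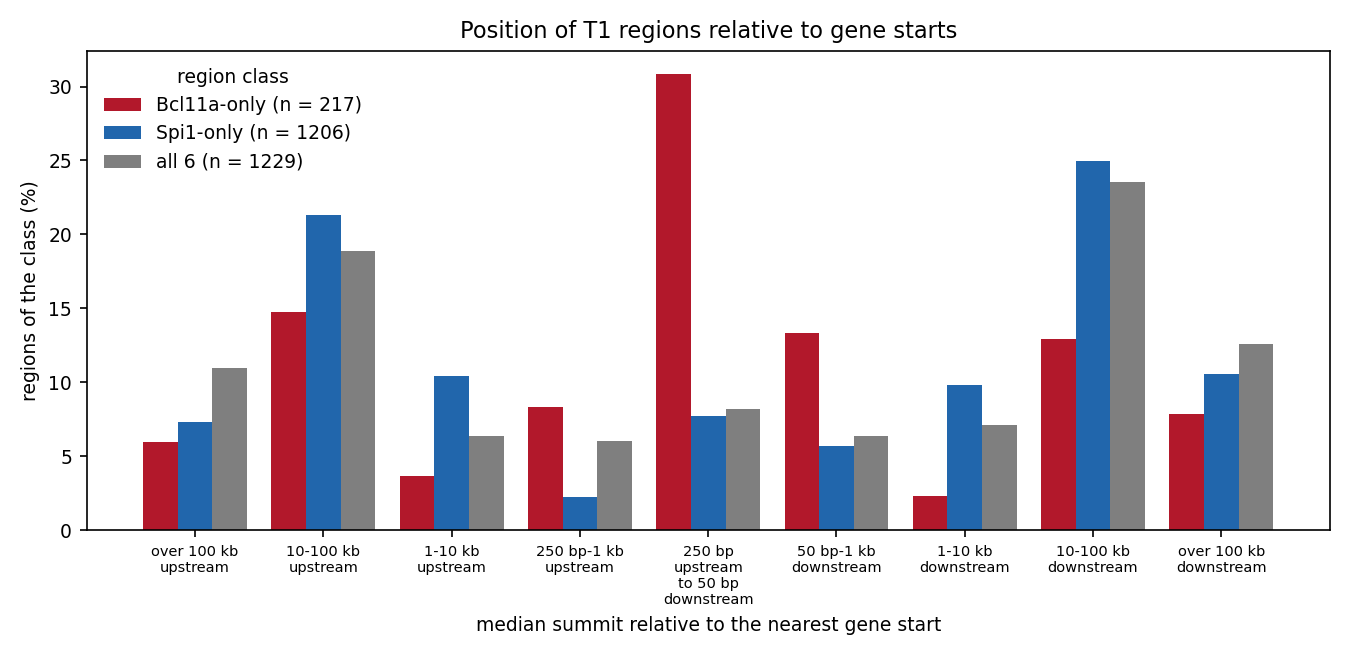
Percent of the regions of each class (Bcl11a-only, Spi1-only, all 6 lists) by the position of the median summit relative to the nearest gene start, in bins of distance along the direction of the gene. The bin from 250 bp upstream to 50 bp downstream holds 30.9% of Bcl11a-only, 7.71% of Spi1-only and 8.22% of shared regions.

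The difference at gene edges between Bcl11a-only and shared regions was also present among peaks of like rank. Where the mean rank of the Bcl11a peaks was below the 50th percentile of their lists, 55% of 80 Bcl11a-only regions and 15.9% of 182 regions in all 6 lists were near an edge. Between the 50th and 75th percentile the shares were 60.7% of 107 and 30.3% of 433. Above the 75th percentile they were 40.6% of 32 and 19.1% of 648. By the ranks of the Spi1 peaks, Spi1-only and shared regions had shares of 18.4% and 25.4% below the 50th percentile. The shares were 19.4% and 28.5% from there to the 75th percentile. Above it they were 19.2% and 18.1%, so the sign of the Spi1-only difference changed. Ranks within lists were lower in Bcl11a-only regions, with a median percentile of 56.7 against 75.7 for the Bcl11a peaks of shared regions. For Spi1-only regions the median percentile was 65.8, against 76.6 for the Spi1 peaks of shared regions.

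Peaks of 1 target alone were narrower than peaks of the same library in shared regions. Bcl11a peaks had median widths of 348, 419 and 511 bp in Bcl11a-only regions and 467, 515 and 541 bp in regions of all 6 lists, in replicates 1 to 3. The Bcl11a-only value was the lower one in every replicate, with a ratio of 0.834 ± 0.101 (SD, n = 3). Spi1 peaks had median widths of 524, 417 and 364 bp in Spi1-only regions and 590, 506 and 514 bp in shared regions, a ratio of 0.807 ± 0.0912 (SD, n = 3) that was again below 1 in every replicate. At equal length the ratios were 0.888 ± 0.102 and 0.839 ± 0.0755. The narrower peaks were seen at each rank. Below the 50th percentile the medians were 394 bp for Bcl11a-only and 448 bp for shared regions, from there to the 75th percentile 436 and 517 bp, and above it 489 and 553 bp. For Spi1-only the same 3 ranks gave 365 against 454 bp, 427 against 541 bp, and 520 against 588 bp.

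**Figure D3:**
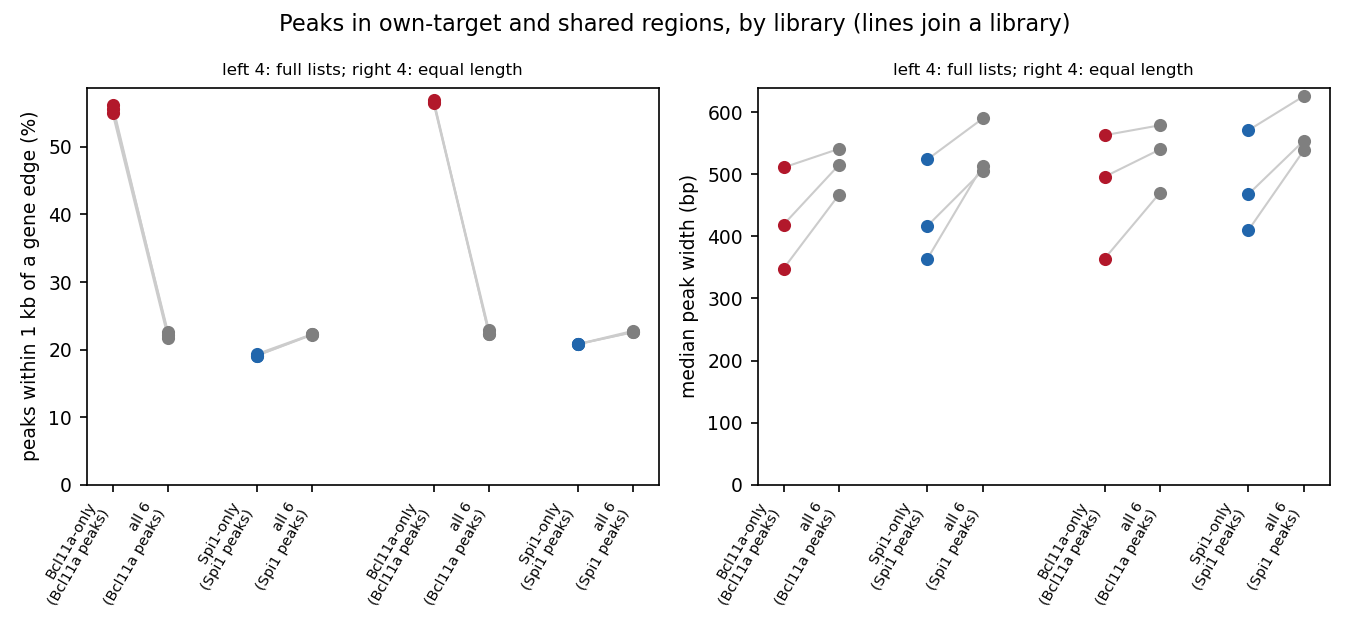
Share of peaks within 1 kb of a gene edge (left) and median peak width in bp (right) for each library, in the regions of its own target alone and in regions of all 6 lists; the left 4 columns of each panel are full lists, the right 4 lists of equal length, and a line joins the values of 1 library. Each of the 12 lines of the width panel rises towards the shared regions, and on the left the Bcl11a-only points sit between 54.96% and 56.9% and the shared points between 21.8% and 22.8%.

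In regions of all 6 lists the summits of both factors lay close together. The median distance between a Bcl11a and a Spi1 summit was 58 to 68 bp over the 9 pairs of libraries. Between Bcl11a libraries it was 56 to 61 bp and between Spi1 libraries 45 to 59 bp. A peak of the other target stood within 1 kb of 13 Bcl11a-only regions (5.94%) and 36 Spi1-only regions (2.90%).

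The leading Bcl11a-only regions included 4 in the immunoglobulin loci. These loci hold the variable and constant segments that B cells join into antibody genes. They were singled out after their values were seen, since the nearest protein-coding gene is far away and says nothing about them. The first of all Bcl11a-only regions, chr12:115372270-115372531, touches the annotated heavy chain variable pseudogene Ighv1-62. Its fold enrichment was 24.8, 32.4 and 32.9 in Bcl11a replicates 1 to 3. A region at chr12:113287823-113288177 lies in Ighg2c, a constant region gene of immunoglobulin G, with a fold enrichment of 12.7, 18.2 and 20.1. A region at chr12:113360099-113360490 lies in Ighg3, another such gene, with 8.03, 13.7 and 15.0. In the kappa light chain locus chr6:70340935-70341169 lies in the variable segment Igkv8-19, with 9.60, 15.9 and 16.1. These 4 regions were 235 to 392 bp wide after merging.

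Lists that had no part in the choice showed the same split at these loci. Each of the 4 regions had a peak in 3 of 3 Bcl11a T2 lists, in 0 of 3 Spi1 T2 lists and in 0 of 4 Spi1 KO-iMOS lists. At Ighv1-62 the fold enrichment in Bcl11a T2 replicates 1 to 3 was 38.3, 36.7 and 34.4. Another constant region gene, Ighg1, had a region at chr12:113329419-113329775 that missed the rule by 1 list. Its peaks had a fold enrichment of 13.7 and 13.1 in Bcl11a T1 replicates 2 and 3 and of 14.1, 15.2 and 13.1 in Bcl11a T2 replicates 1 to 3, with no peak in any Spi1 list. In all, the heavy chain locus held 32 merged regions, of which 3 were Bcl11a-only, 1 was Spi1-only and 2 were in all 6 lists, and the kappa locus held 3, of which 1 was Bcl11a-only. Segments of these loci resemble one another, and the sources used here do not say how reads matching several copies were placed. The source of the tagged DNA in these narrow regions was not tested, and their folds are given as deposited. Leaving out the immunoglobulin loci gave a share near a gene edge of 56.7% for Bcl11a-only against 22.5% for shared regions.

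The other leading Bcl11a-only regions were nearest to Ccr1, Crlf2, Rdm1, Sp3, H2ac18 and Arhgap23. In that order they had a peak in 2, 1, 3, 2, 3 and 3 of 3 Bcl11a T2 lists. They had one in 2, 0, 1, 0, 0 and 0 of 3 Spi1 T2 lists and in 1, 0, 2, 0, 3 and 2 of 4 Spi1 KO-iMOS lists. The region 39941 bp from Crlf2, a subunit of the TSLP receptor, had a fold enrichment of 14.7, 18.6 and 18.6, and the region 32309 bp from Sp3, a GC box factor, 7.70, 11.7 and 11.0. The H2ac18 region lies in a cluster of histone genes with near-identical copies, where reads may be split, and its gene assignment is uncertain. Of the 10 leading regions 1 lay inside a protein-coding gene and 8 lay more than 5 kb from one.

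The leading Spi1-only regions were nearest to Esr1, Plk2, Enpp3, Clec2d, Atp1b3, Pisd, Slc7a1, Map3k7, Fam180a and Vps4b. Their fold enrichment ran from 8.20 to 24.0, with the highest at the region 202239 bp from Plk2, at 24.0, 22 and 21.1 in Spi1 replicates 1 to 3. Slc7a1, for a transporter of cationic amino acids, held its region inside the gene, with 14.2, 12.9 and 11.2. Of these 10 regions 8 had a peak in 3 of 3 Spi1 T2 lists, in 4 of 4 Spi1 KO-iMOS lists and in no Bcl11a T2 list. The exceptions were those near Plk2 and Map3k7, which had none in KO-iMOS. They had a peak in 2 and 1 of 3 Spi1 T2 lists, and each had one in 1 of 3 Bcl11a T2 lists.

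The leading regions of all 6 lists had nearly the same fold enrichment for both targets. At the region inside Chl1, a neural cell adhesion gene, it was 40.6, 40.5 and 40.3 in the Bcl11a lists and 40.8, 39.6 and 40.3 in the Spi1 lists. Over the 10 leading regions the coefficient of variation across the 6 lists was 0.580 to 2.42%, and 9 of them lay more than 5 kb from any protein-coding gene. Of the 1263 shared regions 190 ranked above the 95th percentile of both targets, and 3.16% of these were near a gene edge, against 25.9% of the other 1073. No list of artefact-prone regions was applied, and the part of such signal here was not tested. Set against the 1073 alone, the Bcl11a-only share of 55.7% near an edge was 29.8 points higher and the Spi1-only share of 19.1% differed by −6.80 points.

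Genes were then counted by locus, taken as the gene extended by 10 kb each way. A Bcl11a-only region stood at 257 of 21883 protein-coding loci (1.17%), a Spi1-only region at 1153 (5.27%) and a region of all 6 lists at 1082 (4.94%). Of the 257 loci with a Bcl11a-only region 222 (86.4%) held neither of the other classes. Across 16 lists of genes, 614 in all, 21 loci held a Bcl11a-only region, 54 a Spi1-only region and 50 a shared one. At equal length the shares over all loci were 2.8%, 4.3% and 3.09%, and with loci extended by 1 kb in place of 10 kb they were 0.813%, 3.59% and 3.57%. The share over all genes is not matched for the length of loci, lists overlap, and no set test was made.

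Bcl11a-only regions were found at genes of RNA processing and of chromatin, where Spi1-only and shared regions stood as well. The shares over all loci were 1.17% for Bcl11a-only, 5.27% for Spi1-only and 4.94% for shared regions. Among 40 splicing factors and hnRNPs 5 had a Bcl11a-only region (12.5%), namely Hnrnpl, Hnrnpk, Hnrnpu, Ptbp1 and Snrnp70. Spi1-only regions stood at 2 of the 40 and shared regions at 3. The Hnrnpk region, inside the gene for a poly(C)-binding hnRNP, had a fold enrichment of 6.23, 5.27 and 5.59 in Bcl11a replicates 1 to 3. The Hnrnpu region lay 2078 bp from that gene and 123 bp from the nearest gene start. The Hnrnpl, Hnrnpk, Hnrnpu and Ptbp1 regions had a peak in 1, 2, 1 and 0 of 3 Bcl11a T2 lists. They had one in 1, 0, 1 and 0 of 3 Spi1 T2 lists and in 4, 3, 3 and 3 of 4 Spi1 KO-iMOS lists. At equal length 8 of the 40 splicing genes had a Bcl11a-only region, against 2.8% of all loci. With loci extended by 1 kb 3 did, against 0.813% of all loci. Among 40 chromatin genes 3 had a Bcl11a-only region (7.5%), 3 had a Spi1-only region (7.5%) and 4 had a shared one (10%). The Bcl11a-only regions included that of the CoREST subunit Rcor1, with 4.17, 5.28 and 5.19 at 70 bp from the gene. Another was that of the NuRD ATPase Chd4, which lay 7117 bp away with 4.33, 3.94 and 3.85. The Chd4 region lost the Bcl11a-only pattern at equal length, and a peak overlapped it in 2 of 3 Spi1 T2 lists and 4 of 4 Spi1 KO-iMOS lists. With loci extended by 1 kb 1 of the 40 chromatin genes had a Bcl11a-only region. Of 84 genes for oxidative phosphorylation 3 had a Bcl11a-only region (3.57%), Atp5g1, Uqcrh and Cox5a, and 8 did at equal length. Spi1-only regions stood at 3 of the 84 and shared regions at 2. The Atp5g1, Uqcrh and Cox5a regions had a peak in 0, 3 and 2 of 3 Bcl11a T2 lists. They had one in 0, 2 and 0 of 3 Spi1 T2 lists and in 4, 0 and 1 of 4 Spi1 KO-iMOS lists.

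Counts of Bcl11a-only regions at lineage genes were small, as was the share over all loci (1.17%). Myeloid and receptor lists gave 1 each, at Lcn2 for the neutrophil protein lipocalin, at Il6st for the shared receptor chain of the interleukin-6 family, and at Runx1 for a core blood transcription factor. The region counted for Lcn2 was the one at the Ptges2 start, 8141 bp from Lcn2. The Il6st region lay 44 bp from the gene, with a fold enrichment of 4.88, 4.64 and 5.94. Runx1 held its region inside the gene with 3.97, 3.47 and 5.24, lost the Bcl11a-only pattern at equal length, and had a region of all 6 lists as well. Stem cell, lymphoid, erythroid and megakaryocyte lists, with 30, 29, 26 and 24 genes, gave 0 each, which lists of this size cannot set apart from that share. At equal length, where the share over all loci was 2.8%, the counts were 2 for effectors, 2 for receptors, 3 for myeloid factors, 1 each for lymphoid and erythroid genes, and 0 for stem cell and megakaryocyte genes. Cell cycle and survival genes gave 2 of 31, the inhibitor Cdkn2d and the death effector Bax, and 5 of 31 at equal length.

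Spi1-only regions stood at genes of several blood lineages. Of 30 granulocyte and monocyte effectors 5 had one (16.7%), among them Cd68, Tyrobp, Itgam and Cybb. The Itgam region, in the gene for the integrin chain CD11b, had a fold enrichment of 7.11, 5.52 and 5.44 in Spi1 replicates 1 to 3. Cd68, for a macrophage glycoprotein, had 7.68, 5.76 and 5.15 at 13 bp from the gene, and the same region lay near the translation factor gene Eif4a1. Of 29 lymphoid genes 6 had one (20.7%), among them Notch1, Il21r, Foxp1 and Notch2. The Notch1 locus held 2 regions of all 6 lists as well. Myeloid transcription factors gave 6 of 36 (16.7%), with Cebpa, the factor of granulocyte fate, at 7.44, 6.25 and 4.92 and Irf2 at 7.55, 5.10 and 6.23. Stem cell regulators gave 2 of 30 (6.67%) and erythroid genes 1 of 26 (3.85%), near or below the 5.27% over all loci. Among the stem cell regulators the homeobox gene Meis1 held a strong region with 12.9, 12.2 and 11.6, and Hmga2 held 1 with 10.9, 10.03 and 9.07. Mef2c, counted with the megakaryocyte genes, had 13.9, 11.5 and 11.5. With loci extended by 1 kb the Spi1-only counts were 2 of the 30 effectors and 3 of the 29 lymphoid genes, and at equal length 3 and 4.

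Ribosomal protein genes have many processed copies, and their gene assignment is uncertain. Of the 87 1 had a Bcl11a-only region, at Rpl7, 7 had a Spi1-only region (8.05%) and 3 had a shared one. Rps3 had a fold enrichment of 12.8, 9.54 and 7.81 in Spi1 replicates 1 to 3 at 151 bp from the gene, and Rps26 had 10.1, 10.5 and 7.13. At equal length the counts were 2 Bcl11a-only, 8 Spi1-only and 3 shared. Interferon and inflammation genes gave 1, 3 and 1 of 29, with the inhibitor gene Nfkbia in the Bcl11a-only class and Il1b, Nfkbie and Nfkb1 in the Spi1-only class. At equal length the counts were 0, 6 and 1, and the Nfkbia region was no longer Bcl11a-only.

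Cytokine receptor genes had the highest share of loci with a shared region among the 16 lists. Of 30 such genes 1 had a Bcl11a-only region, 6 had a Spi1-only region and 12 had a region of all 6 lists (40.0%, against 4.94% of all loci). The 12 were Csf1r, Csf2ra, Flt3, Ifnar1, Ifnar2, Ifngr1, Ifngr2, Il17ra, Il2ra, Il6ra, Lepr and Tnfrsf1b, with 13 distinct regions between them. Csf2ra, a chain of the GM-CSF receptor, had a fold enrichment of 4.33, 4.06 and 5.83 in the Bcl11a lists and 8.36, 6.72 and 6.20 in the Spi1 lists. Ifngr1, for the interferon gamma receptor, had 4.81, 8.28 and 8.36 in the Bcl11a lists and 9.48, 5.68 and 6.80 in the Spi1 lists. With loci extended by 1 kb the counts were 1 Bcl11a-only, 4 Spi1-only and 9 shared, and at equal length 2, 6 and 9.

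Myeloid transcription factors were next, with 8 of 36 loci holding a shared region (22.2%). Among them were Junb, Irf5, Fosl2 and Spi1. The shared region at Spi1 itself, chr2:91082196-91083859, covers an edge of the gene. Its fold enrichment was 3.53, 3.63 and 4.11 in the Bcl11a lists and 5.09, 5.08 and 3.72 in the Spi1 lists. The Spi1 locus held 4 merged regions, 1 in all 6 lists, 1 in 2 Spi1 lists and 2 in 1 Bcl11a list each. The Bcl11a locus held 0 regions in any of the 6 lists. At equal length 3 of the 36 loci held a shared region.

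**Figure D4:**
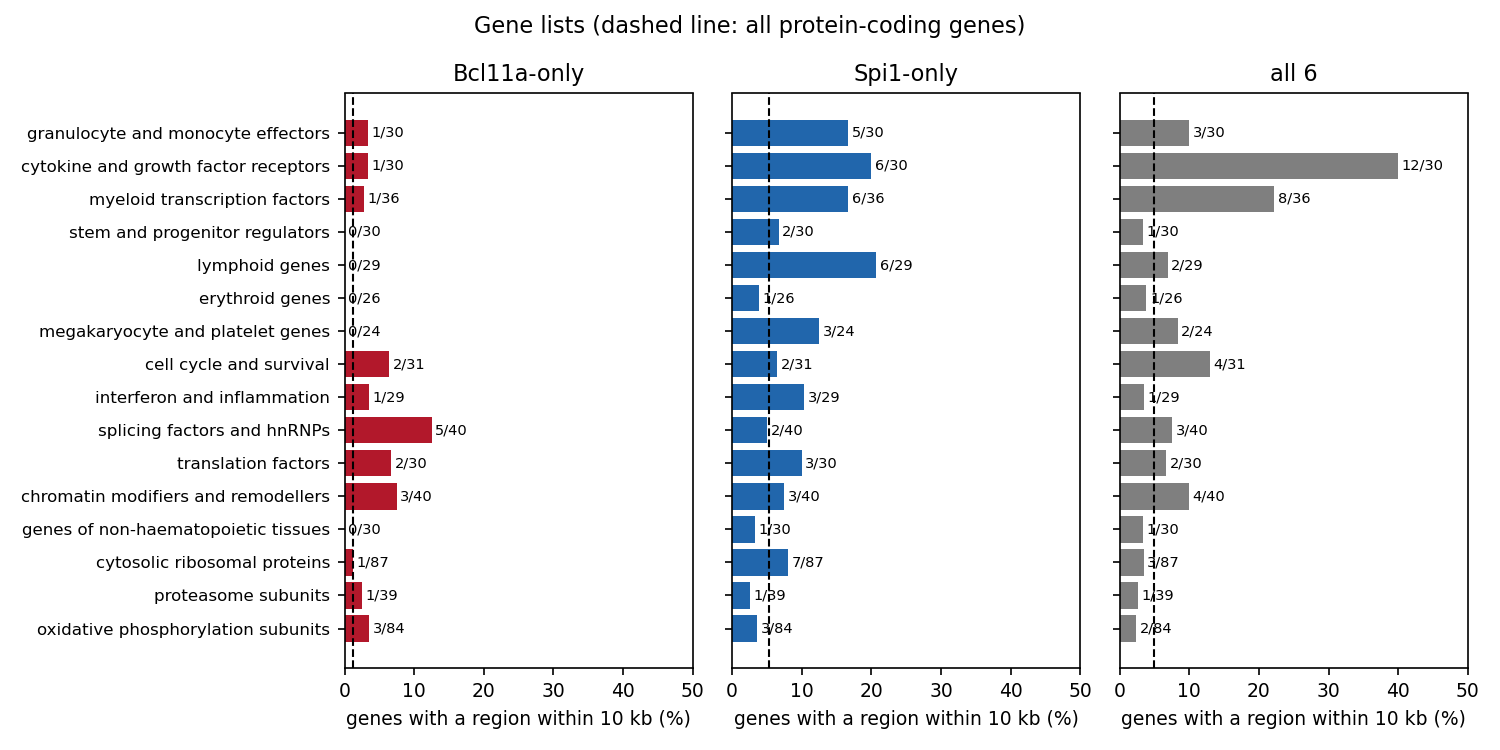
Percent of the genes of each list with a Bcl11a-only, Spi1-only or shared region at the locus (the gene extended by 10 kb each way), with counts beside the bars; dashed lines give the share over all protein-coding genes (1.17%, 5.27% and 4.94%). Receptor genes lead among shared regions with 12 of 30, lymphoid and receptor genes stand close together among Spi1-only with 6 of 29 and 6 of 30, and splicing factors lead among Bcl11a-only with 5 of 40.

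Promoters under the classes differed in sequence make-up. Promoter windows of 300 bases overlapped by a region numbered 142 for Bcl11a-only, 211 for Spi1-only and 336 for all 6 lists, out of 21262. Their mean G+C content was 66.0%, 57.0% and 63.9%, against 56.2% over all windows. GAGGAAGT, the Spi1 core with the ETS flank, was in 1 Bcl11a-only window (0.704%), 35 Spi1-only windows (16.6%), 19 shared windows (5.65%) and 3.13% of all windows. The shorter GAGGAA, which every GAGGAAGT contains, was in 19.0%, 40.8%, 33.0% and 27.4%. CCGGAAGT was in 4.23% of Bcl11a-only, 19.9% of Spi1-only, 7.44% of shared and 5.15% of all windows. GGGCGG was in 84.5%, 56.4%, 75.6% and 46.2%, in the order of the G+C content of the 3 classes.

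The share with the looser BCL11A motif depended on list length. TGACCA was in 14.1% of Bcl11a-only, 10.4% of Spi1-only, 14.0% of shared and 12.5% of all windows. The looser TGNCCA, which contains every TGACCA, was in 60.6%, 35.5%, 41.1% and 45.8%. At equal length TGNCCA was in 49.0% of Bcl11a-only, 40.2% of Spi1-only and 43.5% of shared windows. GAGGAAGT was then in 1.19%, 18.6% and 7.18% of them. GATAAG, the GATA factor site, was in 0.704% of Bcl11a-only, 7.11% of Spi1-only, 5.06% of shared and 6.92% of all windows. The remaining motifs, TGNGGT for Runx, TTGCNNCAA for C/EBP and TGANTCA for AP-1, were in 31.7%, 0.704% and 7.75% of Bcl11a-only windows, 37.0%, 1.90% and 3.32% of Spi1-only windows, 34.8%, 0.595% and 2.68% of shared windows, and 44.1%, 1.79% and 6.99% of all windows. These shares describe letters in promoter windows, some of which overlap or belong to 1 gene, and regions away from starts were not searched. The part of G+C content in the shares was not tested.

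In the T2 lists, which had no part in the choice, Spi1-only regions were called mostly for Spi1. A peak overlapped 3.06%, 2.66% and 3.23% of the 1240 Spi1-only regions in Bcl11a T2 replicates 1 to 3. In Spi1 T2 replicates 1 to 3 the shares were 93.4%, 73.8% and 58.8%. The means were 2.98 ± 0.291% and 75.3 ± 17.3% (SD, n = 3 each) without overlap, and the exact two-sided permutation p of 0.1 is the smallest possible (0.15 after Benjamini-Hochberg adjustment over 3 classes). Of regions in all 6 T1 lists 75.7%, 68.8% and 72.7% were called in the Bcl11a T2 lists and 94.4%, 89.5% and 84.2% in the Spi1 T2 lists (exact permutation p = 0.1, adjusted 0.15). The Spi1 T2 lists, with 12126, 6730 and 4926 peaks, were longer than the Bcl11a T2 lists, with 4634, 2605 and 3168.

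For Bcl11a-only regions the T2 lists of both targets overlapped. In Bcl11a T2 replicates 1 to 3 a peak overlapped 35.2%, 38.8% and 43.4% of the 219 regions. In Spi1 T2 replicates 1 to 3 it did so for 36.5%, 10.05% and 4.11%, so the longest Spi1 T2 list lay among the Bcl11a values. The means were 39.1 ± 4.12% and 16.9 ± 17.3% (SD, n = 3 each; exact two-sided permutation p = 0.2, adjusted 0.2). With the regions chosen without Bcl11a T1 replicate 1 the means were 20.9% and 12.9% (exact permutation p = 0.4). Of the 219, 9 of the 122 near a gene edge and 12 of the 97 others met the Bcl11a-only rule in T2 lists. No Bcl11a T2 list had a peak at 51 of the 122 and 33 of the 97. Among Spi1-only regions 139 of 237 near an edge and 485 of 1003 others met the Spi1-only rule there. With all 12 WT-iMOS lists cut to 2605 peaks, the 329 Bcl11a-only regions were called at 51.1 ± 10.9% in Bcl11a T2 and 5.67 ± 1.15% in Spi1 T2 lists (SD, n = 3 each; exact permutation p = 0.1, the smallest possible). The overlap at full length was thus not seen at equal length. There the regions were a different set, and the cut removed the lower-ranked peaks of every Spi1 T2 list.

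Spi1 lists from KO-iMOS mice called many of the Bcl11a-only regions. The shares were 69.9% and 57.5% in KO-iMOS T1 replicates 1 and 2 and 60.7% and 20.1% in KO-iMOS T2 replicates 1 and 2. These lists held 20177, 12984, 14814 and 6337 peaks, and the share followed their length. At least 1 of the 4 lists had a peak at 111 of the 122 Bcl11a-only regions near a gene edge (91.0%) and at 64 of the 97 others (66.0%). Spi1-only regions were called at 90.3%, 86.5%, 80.7% and 62.4% in the same order of lists. For regions in all 6 lists it was 64.0%, 64.2%, 64.0% and 40.5%, lower than Spi1-only in each of the 4 lists. The shared regions near a gene edge had a peak in at least 1 of these lists at 278 of 284 sites, and the others at 66.1% of 979.

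**Figure D5:**
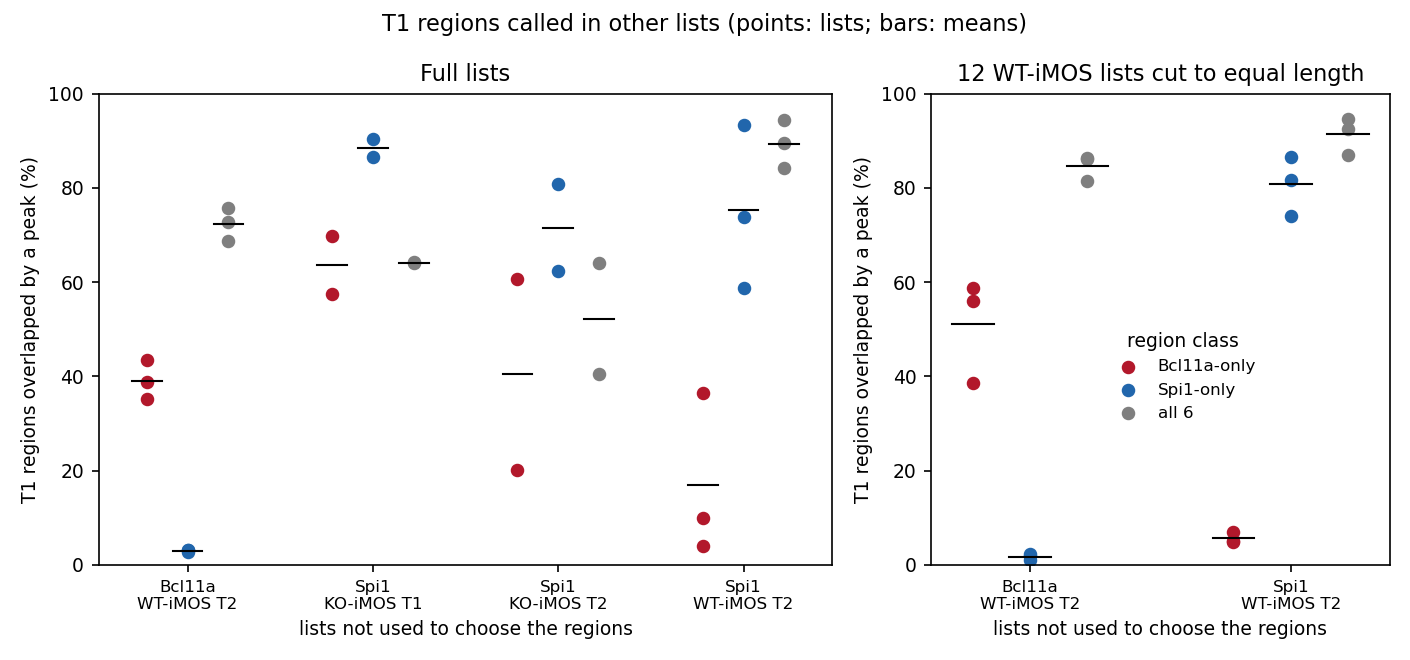
Percent of T1 regions overlapped by a peak in lists not used to choose them, by class; points are lists and bars means, for full lists (left) and for 12 WT-iMOS lists cut to 2605 peaks (right). Spi1-only regions sit near 3% in the Bcl11a T2 lists and between 58.8% and 93.4% in the Spi1 T2 lists, while Bcl11a-only points of both targets overlap at full length and not at equal length.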

How the data were processed

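Per the labels' protocols, a commercial CUT&Tag kit was used throughout. The authors deposited a narrowPeak file for each library, and replicates were not pooled. The submitters' processing notes name Bowtie2, SAMtools, MACS2 and mm10 without settings; whether a control was used is not stated there. The deposited columns are a position, a summit, a score that was not used, a fold enrichment (ratio over background), and −log10 values of p and q. No read counts are given, so depth is unknown, and the number of peaks limits the precision of each share. At most 47 intervals were identical between any pair of the 6 lists, and no list was treated as a repeat.

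Peaks on assembled chromosomes were merged in Python 3.11.15 with numpy 2.4.6, pandas 2.3.3 and scipy 1.17.1, and plots used matplotlib 3.10.9. The 21883 protein-coding genes came from a RefSeq table on GRCm38.p6 (equivalent to mm10), which has no exons; gene starts came from a RefSeq promoter table, added after the files were seen. No genome was used, so motifs were searched in promoter windows and not at summits. A region's width is the mean width of the peaks of 1 target in it. Libraries were compared by exact permutation of labels, two-sided. Scripts were tested on simulated data. Classes, gene lists and tests were chosen with earlier results of these data known. Named were Bcl11a, Spi1, the 10 leading regions of each class by mean percentile of −log10 p, and up to 4 genes per list in that order. The genes with printed promoters, Snrnp70, Cybb, the immunoglobulin segments and the receptor genes beyond 4 were named after their values were seen. Some genes that this rule names are not reported here. Alternatives varied the list length, rank column, q threshold, overlap, class rule, window, gene set, locus size and replicates.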

Additional observations from a re-analysis of the deposited data

Results flagged for a closer look

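Peaks outside the assembled chromosomes entered none of the comparisons, and both targets had them. The Bcl11a lists held 381 such peaks in all, 150, 119 and 112 in replicates 1 to 3, and the Spi1 lists held 425, 145, 133 and 147 in replicates 1 to 3. They lie on unplaced sequence and were not assigned to genes. Groups of 3 libraries are too small for a test of single outlying libraries.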

How the results depend on the processing

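The higher share near a gene edge of Bcl11a-only over shared regions, 33.2 points, kept its direction under every alternative run. It was 33.9 at equal length by −log10 p, 34.7 at a −log10 q of at least 5, 32.2 with peaks up to 1 kb apart merged, 28.8 with classes set by 2 of 3 lists, 33.8 with a 3 kb window and 43.3 with all annotated genes. The 3 alternatives chosen after seeing the data gave 31.9 (gene starts), 29.8 (without the strongest shared regions) and 34.2 (outside immunoglobulin loci). The Spi1-only difference, −3.37 points, became −2.36 and −2.55 at equal length by −log10 p and by fold, −3.20 with 100 bp in common, −3.62 with 1 kb merging, −11.7 with 2 of 3 lists, −0.748 with 3 kb, −2.33 with all genes, −4.91 with starts and −6.80 without the strongest regions, and it changed sign at q, to 0.0454. The difference in share inside a gene also changed sign at q, to −0.146. Region counts were 484 Bcl11a-only and 808 shared at equal length by −log10 p, 361 and 683 by fold, and 1082 Bcl11a-only, 2730 Spi1-only and 2881 shared with 2 of 3 lists. Listed loci numbered 40 Bcl11a-only and 32 shared at equal length, and TGNCCA was in 49.0% of Bcl11a-only windows. Leaving out 1 library at a time gave 254 to 927 Bcl11a-only, 1339 to 2176 Spi1-only and 1302 to 1756 shared regions. The edge differences then ran from 23.1 to 35.4 and from −9.62 to 0.0386 points, and the difference in median width from −15.5 to 2.5 bp, positive without Bcl11a replicate 1 (2.5 bp) and without Spi1 replicate 1 (0.167 bp). The T2 difference of Bcl11a-only regions ran from 7.98 to 32.0 points. With the replicate number as a block (replicate block) the difference in share near an edge per list was 12.05 points with an exact permutation p of 0.5. The T2 difference of Bcl11a-only regions was 22.2 points with an exact permutation p of 0.5. The smallest p that this block permutation can give is 0.25. Same-numbered libraries had deviations correlated at −0.0846, 0.0309 and −0.0902, and differently numbered ones at −0.0321 to 0.102. These correlations cannot show whether same-numbered libraries shared an animal or a batch, which the labels do not say. The cause of these changes was not tested. The motif window was not varied.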
